A study of Mus musculus with 2 samples.

Results

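The posterior lobe of the pituitary is nervous tissue, made of axon endings from the hypothalamus and of pituicytes, the glial cells that surround them. The transcripts described here are those of 8 genes of this lobe and of glia, namely Rax, Nkx2-1, Slc1a3, Vcan, Gfap, Adm, Avp and Oxt. They were taken by symbol from a table of 47069 genes, and all 8 were found. They were measured by bulk RNA-seq in 2 samples of primary pituitary cells from female, randomly cycling C57BL/6 mice aged 10 to 12 weeks. The labels name no transgene or drug for either. Each sample was pooled from 5 whole glands that had been digested with collagenase and dispersed with pancreatine, and held 500000 to 700000 cells. The labels say that the cells were washed and plated into medium, for a time not given, and also call them acutely dissociated. According to the study's methods the cells of one sample were put at once into RNA-Best, a buffer meant to stabilize RNA within intact single cells. Those of the other were put into RNAlater, an established RNA stabilizer used as the reference. The study asked whether transcript levels are alike in both reagents.

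Each stabilizer had 1 library, so no test between them was possible, no p-value is given and no difference has a replicate check. The stabilizer, the cells that went into each sample and the preparation of each library cannot be told apart as sources of a difference. Because the samples are bulk, fewer cells of a type and less RNA per cell cannot be told apart either. The libraries held 53915047 and 44917492 reads counted in genes. Levels are given as CPM, the count of a gene divided by its library's total and scaled to 1000000 reads. Intervals are 95% intervals that cover counting error only. They treat each read as independent, which PCR copies are not, so they may be too narrow.

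Magnocellular neurons of the hypothalamus make vasopressin and oxytocin in their cell bodies and send them along axons that end in the posterior lobe, where both peptides enter the blood. Pituicytes arise from the floor of the embryonic forebrain, and they carry transcription factors of that origin together with proteins that are common to astrocytes. Several of the 8 genes are also active elsewhere in the gland. Slc1a3 and Gfap can be found in folliculostellate cells, Vcan in connective tissue cells and Adm in the walls of vessels.

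All 8 genes were detected in both libraries, and each was lower in RNA-Best than in RNAlater. On the log2 scale with 0.5 CPM added to both values, the ratio of RNA-Best to RNAlater ran from -1.28 for Nkx2-1 to -0.29 for Adm, with a median of -0.78. The background was formed by the 16504 genes that averaged 1 CPM or more over both libraries, a filter that all 8 genes passed. Its median was -0.18, and 67% of it was lower in RNA-Best. Nkx2-1 and Oxt, which makes 2 of 8, were at least 2-fold lower by this ratio, against 4.99% of all genes tested and 4.28% of those of 1 to 10 CPM, where both lie. Oxt, at -1.08, was under 2-fold with TMM (-0.93), DESeq2 size factors (-0.92) and 1 CPM added (-0.96), which leaves 1 of 8. None was at least 2-fold higher, against 0.273% of all genes. Without the added 0.5 CPM, which shrinks the ratio of weakly expressed genes, Avp passed 2-fold as well and the count was 3, against 6.33% of all genes. The counting interval of the plain ratio lay wholly below 0 for 7 of the 8 genes, the exception being Rax, against 51.2% of all genes. Under TMM scaling it did so for 5 genes, as the intervals of Gfap and Adm then also reached 0. The shares of all genes past 2-fold or with such an interval were computed by library total only. Under TMM, 51.4% of all genes were lower in RNA-Best.

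**Figure D1:**
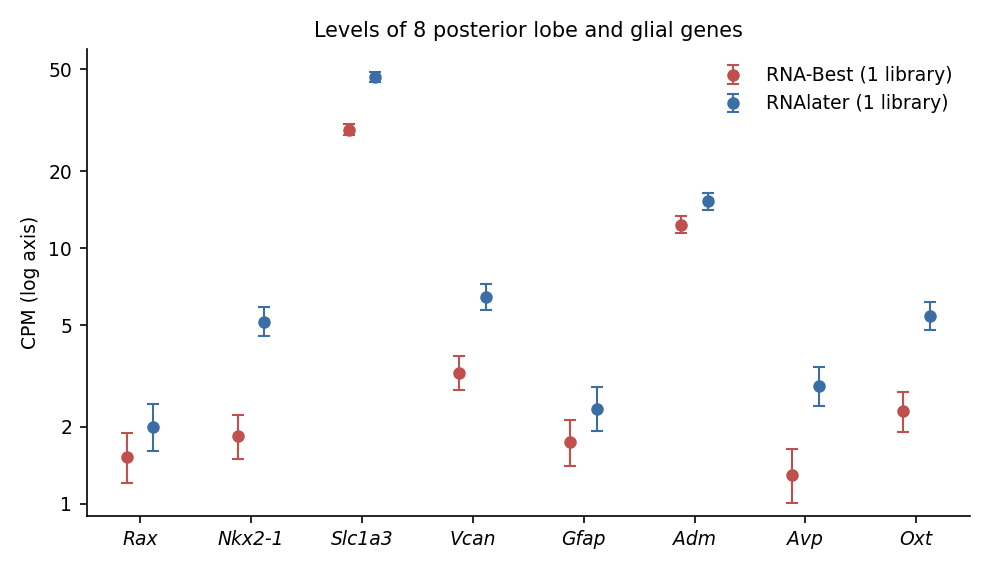
Level of each of the 8 genes in CPM (log axis) in the RNA-Best library and the RNAlater library, 1 library each. Bars are exact 95% Poisson intervals (counting error only). The RNAlater point is the higher of the pair for each gene. The bars of the pair do not overlap for Nkx2-1, Slc1a3, Vcan, Adm, Avp and Oxt, while those of Rax and Gfap do. How many of all genes have bars apart was not computed. By library total, 51.2% of all genes tested had a ratio interval wholly below 0, against 7 of these 8.

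The order of the levels was similar in both libraries. Slc1a3 and Adm stood apart from the rest and together took 77.6% of the summed CPM of the 8 genes in RNA-Best and 71.8% in RNAlater. Vcan came next in both. In RNA-Best the neighbours in the order Oxt, Nkx2-1, Gfap, Rax and Avp had counting intervals that overlapped. In RNAlater, Vcan overlapped Oxt, Oxt overlapped Nkx2-1, and Avp, Gfap and Rax formed a lower group whose neighbours overlapped. Per kilobase of the longest annotated transcript the order changed, because Oxt and Avp are very short and Vcan is very long. On that scale Adm led with 8.91 CPM per kilobase in RNA-Best and 11.0 in RNAlater. Slc1a3 followed with 6.56 and 10.5, and Oxt with 4.29 and 10.1. These values lay close together in RNAlater, and whether intervals on this scale overlap was not computed. Vcan was last in both libraries, at 0.263 and 0.520 CPM per kilobase. The order depends on the transcript taken: per kilobase of the median transcript length Slc1a3 led, with 26.2 and 42.2 CPM per kilobase against 14.0 and 17.3 for Adm, and Gfap was last, with 0.671 and 0.908.

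Rax and Nkx2-1 encode homeodomain transcription factors that mark the floor of the forebrain, from which the posterior lobe grows. Nkx2-1 (ENSMUSG00000001496.15, chromosome 12, 56531958-56536908, minus strand, GRCm38) had 99 reads in RNA-Best and 232 in RNAlater, or 1.84 and 5.17 CPM. RNA-Best was thus 2.81-fold lower, with a plain log2 ratio of -1.49 (interval -1.85 to -1.15). This was the lowest ratio of the 8 genes. Rax (ENSMUSG00000024518.3, chromosome 18, 65928277-65939787, minus strand) had 82 and 90 reads, or 1.52 and 2.0 CPM, a plain log2 ratio of -0.40 (-0.85 to 0.05). Counting error alone leaves the direction of Rax undecided.

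These transcription factor genes have longest transcripts of nearly equal length, 2809 bases for Nkx2-1 and 2856 for Rax. Their median transcript lengths differ, at 2525.5 and 1672 bases, so the match in length depends on the transcript taken. The ratio of the genes to each other does not depend on how a library is scaled. There were 1.21 Nkx2-1 reads for each Rax read in RNA-Best (exact interval 0.892 to 1.64) and 2.58 in RNAlater (2.01 to 3.33). The intervals do not overlap. Both genes are crossed by an antisense gene. Raxos1, on the strand opposite Rax, had 13 and 7 reads, and Gm26973, opposite Nkx2-1, had 2 and 9. Whether the counting used strand was not stated, so reads of a gene and of its antisense partner may be mixed. Of the 51-base windows in Rax transcripts, 24.7% also occur in transcripts of other genes, 1457 of those 1474 in Raxos1. On the longest Rax transcript the share was 38.5%.

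Further genes of the infundibulum and of pituicytes were lower as well. In a list of 9 such genes, 8 passed the filter of 1 CPM. All 8 were lower in RNA-Best by library total, and 7 under each of the other 3 scalings, where Six6 turned higher. The median log2 ratio was -0.83. Against the median of each gene's length class, described further on, it was -0.46, with 7 of 8 genes below. At least 2-fold lower were Tbx3, a T-box factor of the ventral hypothalamus, and Col25a1, which encodes a membrane collagen of pituicytes. This makes 2 of 8, against 4.99% of all genes tested. The share was 5.66% in the 4-6 kb class of Tbx3 and 20.9% in the 6-10 kb class of Col25a1. Col25a1 had 36.9 CPM in RNA-Best and 78.2 in RNAlater, a log2 ratio of -1.07, and Tbx3 had 8.66 and 18.0 CPM, a log2 ratio of -1.02. Both stayed under 2-fold with TMM, DESeq2 size factors and the total without the 2 most abundant genes. Lhx2, a LIM homeodomain factor needed for the posterior lobe to form, had 2.65 and 5.57 CPM and a log2 ratio of -0.94. The most abundant gene of the list, Six6, is also active in the anterior lobe. It had 89.7 and 90.1 CPM, a log2 ratio of -0.01 whose plain interval, -0.07 to 0.05, held 0.

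Slc1a3 encodes GLAST, a transporter by which astrocytes and related glia take up glutamate. Slc1a3 (ENSMUSG00000005360.14, chromosome 15, 8634124-8710764, minus strand) had 1568 reads in RNA-Best and 2099.2 in RNAlater, or 29.1 and 46.7 CPM. It was the most abundant of the 8 genes and the most precisely measured, 1.61-fold lower in RNA-Best with a plain log2 ratio of -0.68 (-0.78 to -0.59). In the same transporter family, 5 of 6 genes passed the filter and all 5 were lower, none by 2-fold, with a median of -0.70, although Slc1a5 turned higher under TMM and DESeq2 size factors. Against the median of each gene's length class, described further on, the family's median was -0.04, with 3 of 5 genes below their class. The ends of that family were Slc1a4, a transporter of neutral amino acids, at -0.77 and Slc1a5, a glutamine transporter and by mean CPM the most abundant of them, at -0.13.

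Gfap encodes the intermediate filament protein by which astrocytes are usually stained. Gfap (ENSMUSG00000020932.14, chromosome 11, 102887336-102900912, minus strand) had 94 and 106 reads, or 1.74 and 2.36 CPM, a plain log2 ratio of -0.44 (-0.85 to -0.02). Gfap was among the least abundant of the 8 genes, and Slc1a3 reads outnumbered its reads 16.7 to 1 in RNA-Best (13.5 to 20.8) and 19.8 to 1 in RNAlater (16.3 to 24.3), with overlapping intervals. Nkx2-1 against Gfap, by contrast, stood at 1.05 reads to 1 in RNA-Best (0.786 to 1.41) and 2.19 to 1 in RNAlater (1.73 to 2.78). Of 9 other intermediate filament genes, 8 passed the filter and all 8 were lower, though Nefl turned higher under the other 3 scalings. The lowest was Synm, which encodes synemin, with 3.75 and 13.2 CPM and a ratio of -1.69, and it was the only gene of the 8 past 2-fold. Nes, which encodes nestin and was the most abundant, stood at -0.86, and the neurofilament gene Nefl at -0.09.

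Astrocyte genes showed a similar direction. All 10 on the list passed the filter, 9 were lower in RNA-Best, none passed 2-fold, and the median log2 ratio was -0.50. The most abundant was Glul, which encodes glutamine synthetase, with 255 and 368 CPM and a ratio of -0.53. Sox9, a transcription factor shared by glia and pituitary stem cells, was the lowest at -0.92, and the fatty acid binding protein gene Fabp7 the highest at 0.28, with a plain interval of -0.09 to 0.83. Sox9 and S100b also belong to the stem and folliculostellate list, Vim to the intermediate filaments and Slc1a2 to the Slc1 family, so these counts are not independent of each other.

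Vcan encodes versican, a large chondroitin sulfate proteoglycan that binds hyaluronan in the matrix around glia and connective tissue cells. Vcan (ENSMUSG00000021614.16, chromosome 13, 89655312-89742509, minus strand) had 176 and 290 reads, or 3.26 and 6.46 CPM. RNA-Best was 1.98-fold lower, with a plain log2 ratio of -0.98 (-1.26 to -0.71). The longest Vcan transcript has 12427 bases, and 8 shorter or partial ones are annotated. The antisense gene Gm4117 overlaps it and had 43.72 and 36.57 reads.

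Of 13 genes of the versican family, its hyaluronan partners and the proteases that cut it, 8 passed the filter, 7 of them were lower in RNA-Best, and the median was -0.59. Against their length classes the median was -0.06, with 4 of 8 below. The 3 genes past 2-fold were all ADAMTS proteases. Adamts4 had 29.1 CPM in RNA-Best and 128 in RNAlater, a log2 ratio of -2.12, the lowest of any gene in the lists used here. Adamts9 stood at -1.48 and Adamts1 at -1.34. Bcan, which encodes the brain proteoglycan brevican and was by mean CPM the most abundant of the list, had 108 and 141 CPM and a ratio of -0.39. The link protein gene Hapln1 was the only gene of the 8 higher in RNA-Best, at 44.5 and 34.2 CPM and a ratio of 0.37.

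Adm encodes adrenomedullin, a peptide that widens blood vessels. Adm (ENSMUSG00000030790.14, chromosome 7, 110627661-110629820, plus strand) had 667.5 reads in RNA-Best and 685.25 in RNAlater, or 12.4 and 15.3 CPM. Its plain log2 ratio of -0.30 (-0.46 to -0.14) was the smallest difference of the 8 genes. The ratio was -0.12 under TMM and -0.11 under DESeq2 size factors. Adm differed in ratio from Slc1a3, Vcan, Nkx2-1, Avp and Oxt by more than their counting intervals, and there were 3.06 Slc1a3 reads per Adm read in RNAlater (2.81 to 3.35) against 2.35 in RNA-Best (2.14 to 2.57). In its receptor list, 6 of 7 genes passed the filter and all 6 were lower, none by 2-fold, though Ramp1 turned higher with DESeq2 size factors. The receptor gene Calcrl was both the most abundant and the lowest at -0.64, and Ramp1, a partner protein of the receptor, was the highest at -0.16. The related peptide gene Adm2 had 0 reads in RNA-Best, which allows up to 0.0556 CPM, and 3 in RNAlater.

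Oxt and Avp encode the precursors of oxytocin, which acts on the uterus and mammary gland, and of vasopressin, which acts on the kidney and vessels. Each precursor holds the short hormone followed by its carrier, a neurophysin. The genes lie close together on chromosome 2 and face each other, with 3565 bases between their ends. Oxt (ENSMUSG00000027301.7) lies on the plus strand at 130576173-130577054 and Avp (ENSMUSG00000037727.6) on the minus strand at 130580620-130582554. Their transcripts are the shortest of the 8 genes, 537 bases for Oxt and 577 for Avp. The second of 3 exons, which is coding throughout and holds most of the neurophysin, is nearly the same in both, with 193 of 202 bases identical (95.5%). It is printed here because it bears on how the reads of these genes could be counted. Capitals mark the 125 bases at its 5′ end that are the same without a break, and the sequences come from the GENCODE M21 transcripts on GRCm38.
Oxt exon 2, chr2:130576591-130576792, plus strand: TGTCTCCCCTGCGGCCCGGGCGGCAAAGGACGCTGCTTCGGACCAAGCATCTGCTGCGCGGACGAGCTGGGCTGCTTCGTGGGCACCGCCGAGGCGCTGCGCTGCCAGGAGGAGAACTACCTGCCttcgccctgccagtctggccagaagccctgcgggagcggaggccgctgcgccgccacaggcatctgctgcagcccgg
Avp exon 2, chr2:130581056-130581257, minus strand: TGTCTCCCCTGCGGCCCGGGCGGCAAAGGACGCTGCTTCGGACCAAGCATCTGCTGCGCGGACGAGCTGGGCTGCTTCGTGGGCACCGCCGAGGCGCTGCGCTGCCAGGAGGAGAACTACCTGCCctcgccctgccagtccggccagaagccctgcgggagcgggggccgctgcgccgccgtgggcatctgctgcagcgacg

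With 2 more matching bases at the end of the first exon, the identical run in the spliced transcripts is 127 bases long. Reads of 51 bases, the length sequenced here, have 77 start positions inside it, which is 15.8% of all positions on Oxt and 14.6% on Avp. No other annotated transcript shared a window of that length with either gene. A read from these positions matches both genes equally well.

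**Figure D2:**
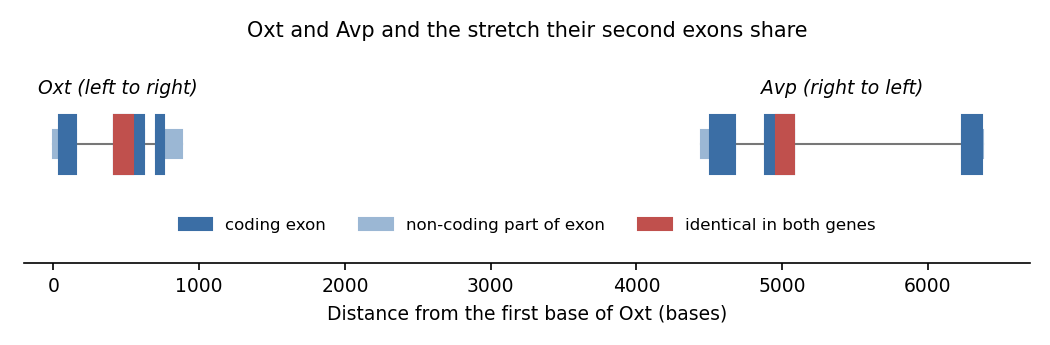
Map of Oxt and Avp, drawn to scale as distance in bases from the first base of Oxt. Dark boxes are coding exons, pale boxes non-coding parts of exons, and red boxes the 125 bases of the second exon that are identical in both genes, which lie 3565 bases apart end to end.

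Oxt had 124.33 reads in RNA-Best and 244.17 in RNAlater, or 2.31 and 5.44 CPM. Avp had 69.67 and 129.83 reads, or 1.29 and 2.89 CPM. Both genes were more than 2-fold lower in RNA-Best by the plain ratio. For Oxt it was 2.36-fold, with a plain log2 ratio of -1.24 (-1.56 to -0.92), and for Avp 2.24-fold, with -1.16 (-1.60 to -0.73). With 0.5 CPM added, the log2 ratios were -1.08 and -0.92.

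The counts of both genes hold fractions of reads, so some reads had been divided. The fractions of Oxt and Avp complement each other, as the counts add up to 194 reads in RNA-Best and 374 in RNAlater, whole numbers in each library to within 0.005 reads. The sum does not depend on how reads were divided between the genes. It came to 3.60 CPM in RNA-Best against 8.33 in RNAlater, 2.31-fold lower, with a plain log2 ratio of -1.21 (-1.47 to -0.96). The share of Oxt in the sum was 64.1% in RNA-Best, with a Clopper-Pearson interval of 56.7% to 70.7%, and 65.3% in RNAlater, where the interval was 60.2% to 70.1%. The intervals of the share overlapped, whereas the interval of the summed ratio lay wholly below 0.

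Genes of a list chosen for hypothalamic neurons were mixed in level. Crh, which encodes corticotropin-releasing hormone, had no read in RNA-Best or RNAlater, which allows up to 0.0556 CPM in the first library and up to 0.0668 in the second. Sim1 and Otp, transcription factors of the nuclei where the magnocellular neurons lie, had 1 read each over both libraries, and Trh, which encodes thyrotropin-releasing hormone, had 13 and 17. Of the 7 genes on this list, 3 passed the filter of 1 CPM, and all 3 were lower by library total. The most abundant, the vesicular glutamate transporter gene Slc17a6, had 23.6 and 25.2 CPM and a log2 ratio of -0.09 that turned above 0 under the other 3 scalings, and Pdyn, the gene of the opioid precursor prodynorphin, had 5.69 and 6.88 CPM and a ratio of -0.25. Rbfox3, which encodes the neuronal nuclear protein NeuN, had 2.5 and 4.36 CPM and a ratio of -0.70. These 3 genes were thus as abundant as several of the 8 genes described here. Which cells held their transcripts was not tested, so they are not taken as a sign of hypothalamic cell bodies.

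Receptors of both peptides and the enzymes that process or degrade them formed a list of 9 genes, of which 7 passed the filter. By library total 5 were lower in RNA-Best and 2 higher, none by 2-fold, and 3 or 4 were lower under the other scalings. The median log2 ratio was -0.18, equal to that of all genes. Against their length classes the median was 0.22, with 0 of the 7 genes below. The vasopressin receptor gene Avpr1b, known from corticotropes, had 2.04 and 2.49 CPM, and the oxytocin receptor gene Oxtr had 4.82 and 6.40 CPM. Avpr2, the renal receptor gene, had 0 and 2 reads and Avpr1a 4 and 4. The carboxypeptidase gene Cpe was the most abundant, at 849 and 775 CPM, and its ratio of 0.13 lay near that of the convertase gene Pcsk2 at 0.18, the highest. The lowest was Lnpep, whose product degrades both peptides, at -0.68.

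Transcript length moved with the ratio in these libraries and is therefore given beside the 8 genes. Over all genes tested, the median log2 ratio was 0.29 for longest transcripts of up to 1 kb and -0.90 for those over 10 kb. Against the median of its own length class, each of the 8 genes except Vcan was lower. Vcan, at -0.89, lay at the median of the 373 genes over 10 kb, which was -0.90. When classes were formed from the median length of a gene's transcripts instead, Vcan lay 0.59 below its class, so its place depends on which transcript is taken.

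Oxt, Avp and Nkx2-1 lay furthest from their classes. Oxt was 1.37 below the median of the 2093 genes of up to 1 kb and Avp 1.21 below. In that class 4 genes, Oxt included, had a ratio as low as that of Oxt, and 7, Oxt and Avp included, had one as low as that of Avp. At least 2-fold lower were 6 genes of the class (0.287%), all of them among its 1171 genes of 1 to 10 CPM (0.512%), where counting error is widest. By the plain ratio, which counts Avp in as well, 13 of those 1171 genes passed (1.11%). Nkx2-1 was 1.19 below the median of the 2-3 kb class, in which 5 of 3111 genes were as low. Rax, Gfap, Slc1a3 and Adm lay 0.22 to 0.36 below their class medians, where 14.7% to 23.0% of the genes of the class were as low. With classes of median transcript length, Slc1a3 lay 0.53 below its class and Gfap 0.06, while Rax lay 0.17 and Adm 0.29 below.

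**Figure D3:**
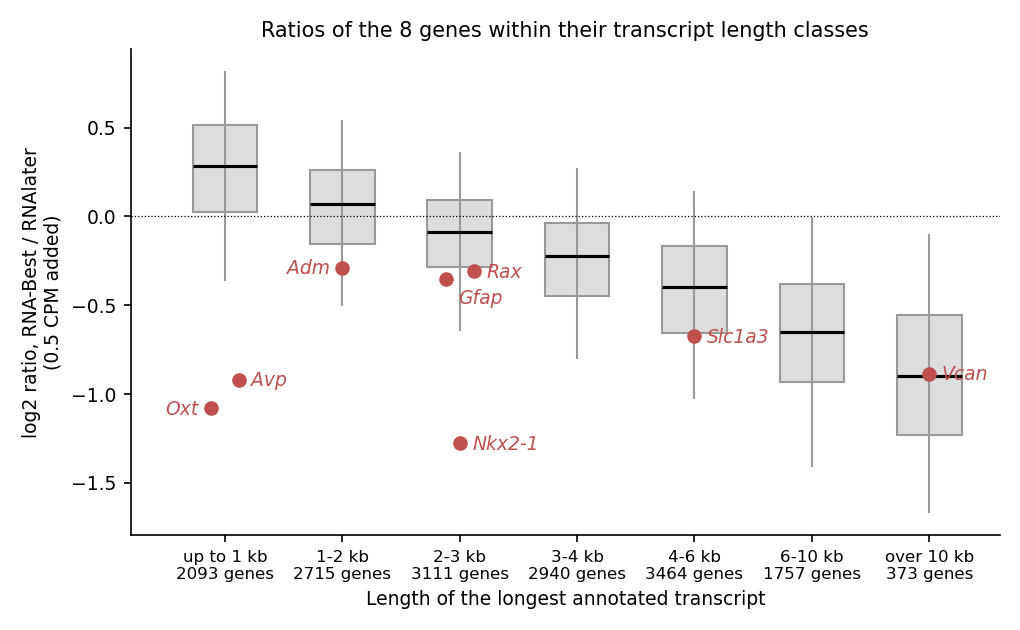
Log2 ratio of RNA-Best to RNAlater (0.5 CPM added) by class of longest annotated transcript, for all genes that averaged 1 CPM or more. Grey boxes span the middle 50% of genes, thin lines the 5th to 95th percentile, black bars the median, and red points are the 8 genes. Class medians go from 0.29 to -0.90, Vcan sits on its class median, and Oxt, Avp and Nkx2-1 lie under the 5th percentile of theirs.

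Other cells of the gland could hold some of these transcripts, so their markers are given for the same libraries. Stem and folliculostellate markers were lower in 9 of 10 genes, with a median log2 ratio of -0.54 and a summed level of 494 CPM in RNA-Best and 775 in RNAlater. Cdh1, which encodes the adhesion protein E-cadherin, was the most abundant of them by mean CPM and the lowest, at -1.12. The highest was the secreted protein gene Mia at 0.29. Pericyte and fibroblast markers were lower in 10 of 10, with a median of -0.75 and sums of 612 and 831 CPM, from the growth factor receptor gene Pdgfra at -1.61 to Ogn, a small matrix proteoglycan gene, at -0.16. Their most abundant gene was the collagen gene Col1a2, at -0.18. Ogn under TMM, and Ogn and Col1a2 under DESeq2 size factors, turned higher. Endothelial markers were lower in 9 of 10, and in 8 under the other 3 scalings, where Esam turned higher, with a median of -1.05 and sums of 456 and 877 CPM, from the VEGF receptor gene Kdr at -1.63 to Egfl7 at 0.04. Their most abundant gene was Plvap, of fenestrated vessels, at -0.77. No marker of these 3 lists was at 0 in either library. By library total, 1, 3 and 5 of the 10 genes on the lists in that order were past 2-fold lower. This compares with 2 of the 8 genes described here and 4.99% of all genes. The share was 5.66% in the 4-6 kb class and 20.9% in the 6-10 kb class, where many of these markers lie. Against their length classes the list medians were -0.52, -0.49 and -0.78 in the same order, with 9, 9 and 10 of the 10 genes below. With TMM and DESeq2 size factors 1 of the 8 genes was left. The endothelial count of 5 was 3 under TMM and 2 under DESeq2 size factors, and the stem cell count was 0 under the other 3 scalings. The part of these cells in the levels of Slc1a3, Gfap, Vcan and Adm was not tested.

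The hormone genes of the anterior lobe stood the other way. Among the 7 anterior lobe hormone genes, which together took 307051 CPM in RNA-Best and 239085 in RNAlater, all were higher in RNA-Best, none by 2-fold, with a median of 0.45. Their longest transcripts have up to 1600 bases, except that of Tshb, with 4396. Against their length classes the median was 0.30, with Gh and Lhb below their classes and 5 above. They ran from Gh at 0.04 to Tshb at 0.73, and the most abundant was Prl. Intermediate lobe melanotropes lie next to the posterior lobe. Their 4 markers were split, 2 lower and 2 higher by library total and 1 lower under TMM and DESeq2 size factors. The 2 higher by library total, Pomc and Pcsk2, are also counted in the hormone list and the processing list above, so they add no new values. Pomc, the precursor gene of melanotropin, was higher at 0.48, while Pax7, the factor that sets melanotropes apart from corticotropes, had 6.58 and 10.7 CPM and a ratio of -0.66. Macrophage markers were lower in 4 of 8 genes, from the chemokine receptor gene Cx3cr1 at -0.82 to the complement gene C1qa at 0.56. C1qa was the most abundant by mean CPM. The median of -0.09 turned to between 0.03 and 0.09 under the other scalings.

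**Figure D4:**
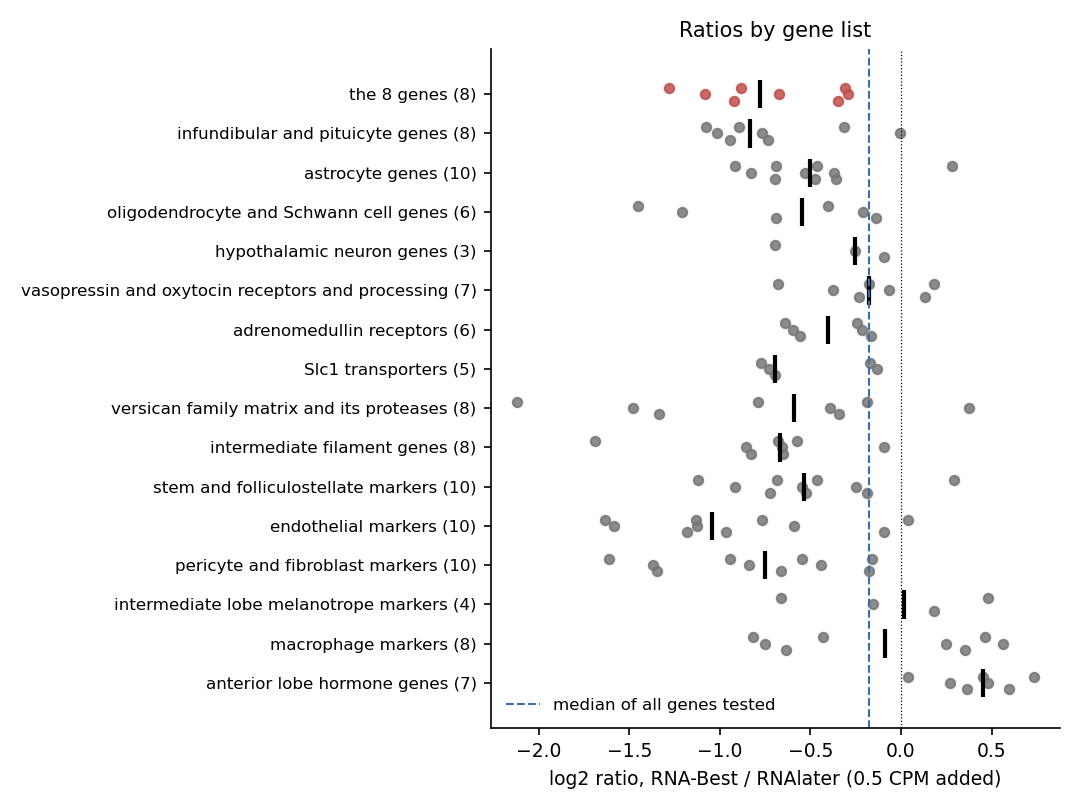
Log2 ratio of RNA-Best to RNAlater (0.5 CPM added) of each gene that averaged 1 CPM or more, by gene list, with the number of genes in parentheses. Black bars are list medians and the dashed line is the median of all genes tested, -0.18. The 8 genes (red) lie left of that line, as do most infundibular, glial, stem cell, vascular and connective tissue genes, whereas the hormone genes lie right of it.

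Pairwise, 11 of the 28 pairs that can be formed from the 8 genes had ratio intervals that did not overlap. Nkx2-1 was apart from Rax, Gfap, Slc1a3 and Adm, and Oxt from the same 4. The other 3 pairs were Adm with Slc1a3, Vcan and Avp. These intervals were not adjusted for the number of pairs. They cover counting error only, so they do not show that the genes differ between stabilizers. In these libraries Adm, Rax and Gfap were 1.23- to 1.35-fold lower, Slc1a3 and Vcan 1.61- and 1.98-fold, and Avp, Oxt and Nkx2-1 2.24- to 2.81-fold.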

How the data were processed

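Poly(A) RNA was sequenced as single reads, with 1 library for RNA-Best and 1 for RNAlater, grouped by the stabilizer given per the labels. The authors deposited estimated counts per Ensembl gene, not normalized and with fractions of reads. The submitters' processing notes name STAR 2.5.1b, featureCounts 1.5.0-p1 and mm10, and the options for strand and for reads with several matches are not given in the sources used here. Of the 8 genes, 4 (Rax, Nkx2-1, Vcan and Gfap) had whole counts in both libraries.

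Symbols, positions and transcripts came from GENCODE M21 on GRCm38, where 98.9% of identifiers were found, version suffixes ignored. Counts were scaled to CPM by column total. Log2 ratios had 0.5 CPM added, and the filter kept genes averaging 1 CPM or more. Plain ratios had nothing added. Fractions were rounded for exact conditional binomial, Poisson and Clopper-Pearson intervals. Scaling alternatives came from R 4.3.3, with TMM from edgeR 4.0.16 and size factors from DESeq2 1.42.0, and the rest used Python 3.11.15, numpy 2.4.6, pandas 2.3.3 and scipy 1.17.1. The steps were checked on simulated data.

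The voom and limma model the study used elsewhere could not be fitted to 1 library per group. The members and the 15 comparison lists were chosen with earlier results of these data known. Named were the 8 genes and, of each list, the most abundant gene by mean CPM and those with the highest and lowest ratio. Tbx3, Lhx2, Adamts1, Adamts9, Crh, Sim1, Otp, Adm2, Trh, Pdyn, Lhb, Avpr1a, Avpr1b, Avpr2, Oxtr, Esam and the antisense genes were named after their values were seen. No genes of like pattern were sought, as 2 libraries give 1 ratio per gene.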

Additional observations from a re-analysis of the deposited data

How the results depend on the processing

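All 8 ratios stayed below 0 under every scaling and pseudocount tried, while the size of the differences moved. Plain ratios, whole counts only and the sum of Oxt and Avp were chosen after seeing the data. No paired analysis was possible because there was a single library of either stabilizer, and for the same reason no library could be left out. TMM, DESeq2 size factors and the total without the 2 most abundant genes shifted the median of all genes by 0.16, 0.17 and 0.12. Relative to it, the median of the 8 genes stayed between -0.61 and -0.60.

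The count of genes at least 2-fold lower was 1 under TMM, DESeq2 size factors and a pseudocount of 1 CPM, with Oxt lost, 1 minus the median of classes of median transcript length, with Nkx2-1 lost (-0.99), and 1 among the 4 genes with whole counts (all 4 were lower). With a mean of at least 10 CPM only 2 genes were left, both lower and 0 of them by 2-fold, with a median of -0.48. The share of all genes past 2-fold was not computed under these settings. Minus the median of the length class, the median of the 8 genes was -0.32 with the longest transcript and -0.56 with the median length, and Vcan changed sign to 0.011 with the longest. Filters on genes left aside, 66 values for single genes were computed under alternatives. Of these, 57 moved by less than the counting error of their gene, 8 by more and 1 changed sign. All came from the same counts and the labels follow interval width, so they do not measure stability. The 8 were mostly of Slc1a3 and Adm, whose intervals are narrowest. With classes of median transcript length, Gfap went from -0.35 to -0.06 and was still within its wide interval. The causes were not tested. Depth limits most of the 8 genes: the interval of the plain log2 ratio spans 0.19 for Slc1a3 and 0.31 for Adm, but 0.55 for Vcan and up to 0.90 for Rax.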

Other observations

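Genes of myelin-forming cells were drawn in the figure of ratios by gene list but not described above. Of 10 oligodendrocyte and Schwann cell genes, 6 averaged 1 CPM or more, and all 6 were lower in RNA-Best, with a median log2 ratio of -0.55. The most abundant was Mbp, the gene of myelin basic protein, with 63.3 CPM in RNA-Best, 83.8 in RNAlater and a log2 ratio of -0.40. Mobp, another myelin protein gene, had 1.08 and 3.81 CPM, a ratio of -1.45, and the lineage factor gene Olig1 had 0.631 and 2.12 CPM, a ratio of -1.21. These were the 2 genes of the list past 2-fold. Mag, of the myelin surface, was the highest at -0.14, with a plain interval of -0.73 to 0.35. Olig1 was named after its values were seen.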
